A study of Homo sapiens with 60 samples.

Results

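The binding sites of PDS5A were compared between METTL7A knockout (KO) and wild-type (WT) PC9 cells that had both been kept under osimertinib. The sites are CUT&RUN peaks on chromosomes 1 to 22 with a global irreproducible discovery rate (IDR, a measure of how well the rank of a peak agrees between replicates) of 0.05 or less, that is a −log10 value of at least 1.301. There were 4021 such peaks in KO cells and 12323 in WT cells, 16344 of the 149865 peaks that pass the same rule in the 24 lists of the series. Every deposited peak on these chromosomes, 17960 in KO cells and 34061 in WT cells, was kept as a second set.

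PC9 is a human lung adenocarcinoma line, and CUT&RUN releases and sequences the chromatin fragments to which an antibody is bound. The series has 60 samples in 30 groups, from METTL7A KO cells, KO cells that overexpress tagged METTL7A (Rescue) and WT cells, each untreated or treated, with 5 antibodies. Osimertinib, an inhibitor of EGFR, was raised from 100 nM over 6 to 8 weeks, so both groups compared here share the labelled drug treatment and differ in the labelled METTL7A genotype. Each group had 2 samples, joined by the authors in 1 list. Whether the KO cells are 1 clone is not given in the sources used here, nor whether the samples of a group came from separate cultures. The lists hold no expression values, so neither the loss of METTL7A nor markers of the cell line could be checked in them. Each group gives 1 list, and no p-value was computed. Depth is unknown, since the lists carry no read totals; 20 M paired-end reads were the planned depth of a library, per the labels.

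Cohesin is a ring-shaped complex that holds DNA strands together and extrudes chromatin loops, and RAD21 is its kleisin subunit, which closes the ring. PDS5A binds the ring through RAD21; together with WAPL it releases cohesin from chromatin, and it also limits how far loops grow, often where CTCF is bound. H3K27Ac is a histone acetylation found at active promoters and enhancers, and METTL7A is a methyltransferase-like protein of lipid droplets and the endoplasmic reticulum. The IgG libraries show where fragments are released without a specific antibody.

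PDS5A peaks were fewer in treated KO cells, at 0.326 times the WT number, and most KO peaks were also WT sites. Over every deposited peak the ratio was 0.527, and in covered sequence it was 0.325 (5.00 Mb in KO cells, 15.4 Mb in WT cells). RAD21 peaks of the same cells had a ratio of 0.263 (4293 in KO cells, 16340 in WT cells), and H3K27Ac peaks one of 0.832 (8383 in KO cells, 10077 in WT cells). At an IDR of 0.01 or less the H3K27Ac ratio turned round, to 1.09 (3431 in KO cells, 3144 in WT cells), while the PDS5A and RAD21 ratios were 0.269 and 0.207. In untreated cells the PDS5A ratio was 0.521, from 901 peaks in KO cells and 1731 in WT cells. Treated Rescue cells had 11243 PDS5A peaks, 0.912 times the WT number. Untreated Rescue cells had 13746, more than treated Rescue cells and far more than untreated WT cells, so the Rescue list was long without drug too. The PDS5A list of treated KO cells therefore stood below those of treated Rescue and WT cells, as its RAD21 list did. Treated Rescue cells had 10864 RAD21 peaks. In untreated cells RAD21 went the other way, with 5283 peaks in KO cells and 3635 in WT cells.

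The lists also differed in measures of their quality. Of the deposited PDS5A peaks, 22.4% passed the IDR limit in KO cells and 36.2% in WT cells, and the replicate values had a Spearman correlation of 0.519 across KO peaks and 0.632 across WT peaks. Over all deposited peaks the median −log10 p of the first and second replicate of the list was 8.97 and 12.7 in KO cells, against 16.5 and 10.1 in WT cells. The first replicate was thus the weaker in KO cells and the second in WT cells. The deposited IgG list was shorter in KO cells too, with 2668 peaks against 7509 in WT cells, and with peaks on any deposited IgG peak left out the PDS5A ratio was 0.236. The part of these differences in the shorter KO list was not tested.

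At the limit itself the peaks differed little in strength, taken as the lower of the replicate −log10 p values. The 100 KO peaks just inside had a median of 11.7 and the 100 just outside 11.8. In WT cells these medians were 11.3 inside and 12.5 outside. These peaks were taken as the nearest to the limit by IDR, so similar strength was largely set by that choice. The medians do not say how strength differs between all peaks inside and outside the limit, which also reads the rank agreement of the replicates.

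**Figure D1:**
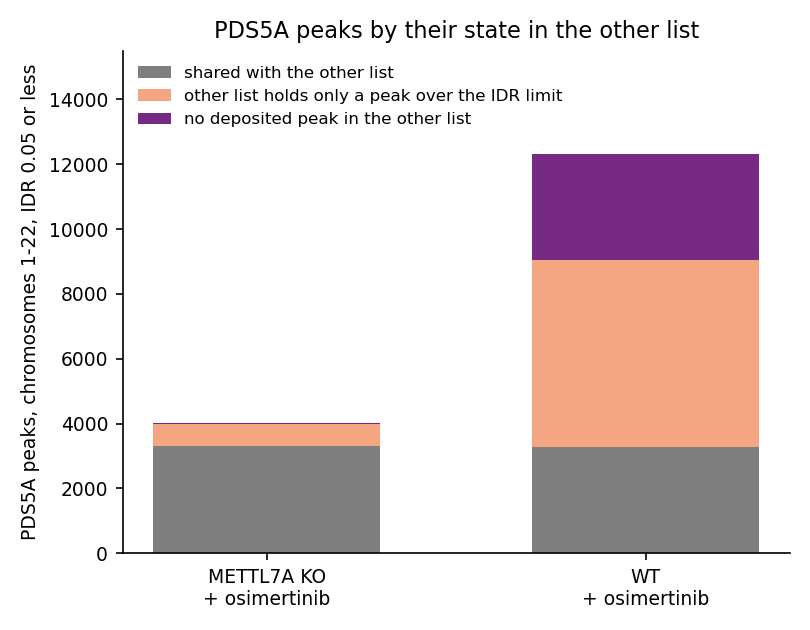
Number of PDS5A peaks with an IDR of 0.05 or less on chromosomes 1 to 22 (vertical axis) in treated KO (left) and WT cells (right), split by their state in the other list. In the KO bar 42 of 4021 peaks had no deposited WT peak, and in the WT bar 3288 of 12323 had no deposited KO peak.

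Of the KO peaks, 3293 overlapped a WT peak by 1 bp or more, which is 81.9% (95% CI 80.7 to 83.1), and 728 were KO-only. Of the WT peaks, 3278 overlapped a KO peak, which is 26.6% (25.8 to 27.4), and 9045 were WT-only. The intervals are Wilson binomial intervals and cover counting error only. Against every deposited peak of the other list, 99.0% of KO peaks had a WT peak and 73.3% of WT peaks had a KO peak. The KO list was thus almost wholly contained in the deposited WT list: 42 KO peaks (1.04%) had no deposited WT peak at all, while 3288 WT peaks (26.7%) had no deposited KO peak. Weaker binding per cell and binding in fewer cells cannot be told apart in such lists.

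Cutting the WT list to its strongest 4021 peaks removed the imbalance and lowered the overlap. At equal length 48.4% of KO peaks (46.9 to 49.99) overlapped a WT peak and 48.1% of WT peaks (46.6 to 49.7) a KO peak. Rescue cells set the scale for this figure: at the same length, 59.1% of the KO peaks overlapped a Rescue peak and 55.0% of the Rescue peaks a WT peak. At 901 peaks, the length of the shortest list, 34.4% of treated KO peaks overlapped a treated WT peak, against 52.6% for untreated KO and untreated WT cells. Treated KO and treated Rescue cells shared 46.5% at that length, and treated Rescue and treated WT cells 46.8%. Treated and untreated KO cells shared 42.0% at that length, as did treated and untreated WT cells. Among these pairs the overlap was lowest between treated KO and treated WT cells. A cut at 901 takes the whole untreated KO list but only the strongest part of the treated lists. For treated KO and WT cells the overlap depended on the cut, with 39.1% of KO peaks at 2000 and 35.3% at 1000. The treated and untreated pairs are therefore not like for like.

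The asymmetry was graded by strength on the WT side and nearly flat on the KO side. Of the WT peaks in the weakest decile, 7.79% were listed in KO cells, and of those in the strongest decile 70.2%. Any deposited KO peak was found for 62.5% of the weakest and 91.7% of the strongest WT decile. KO peaks met a listed WT peak in 76.6% to 86.8% of cases in each decile. Among the 250 strongest peaks, 84.8% of KO peaks were listed in WT cells and 88.4% of WT peaks in KO cells. Among the 2000 strongest these shares were 84.8% and 61.1%. The strongest WT sites were therefore mostly kept in KO cells, although not among the strongest there, since the 250 strongest of each list shared 37.6%.

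**Figure D2:**
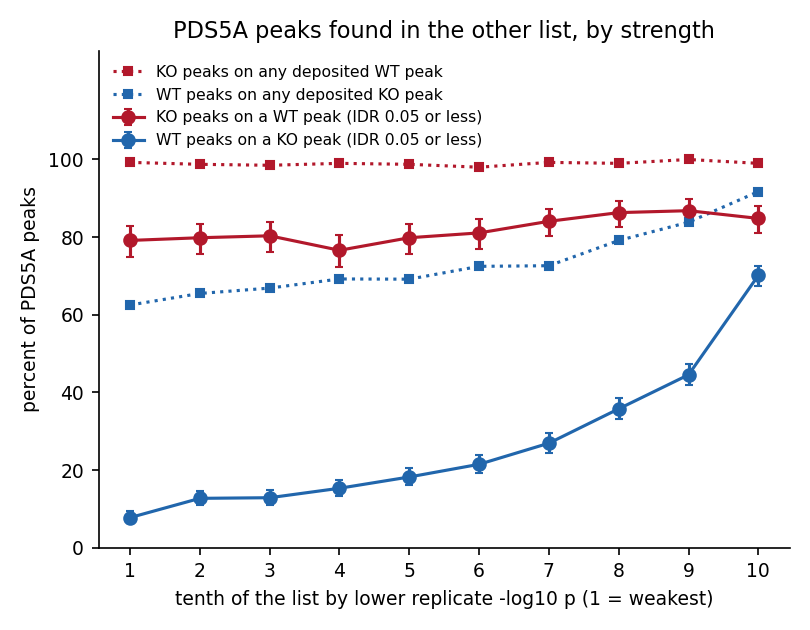
Share of PDS5A peaks found in the other list (vertical axis, percent) by decile of strength within their own list (horizontal axis, 1 weakest, 10 strongest); red is KO and blue WT, with solid lines for peaks within the IDR limit (bars are 95% Wilson intervals) and dotted lines for any deposited peak. The solid WT line climbs to 70.2% from 7.79%, while the solid KO line stays between 76.6% and 86.8%.

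At shared sites the summits of PDS5A lay close together and the peaks were narrower in KO cells. Among 3246 pairs of 1 KO and 1 WT peak, the summits lay a median of 36 bp apart (quartiles 15 and 113 bp) and 90.4% lay within 250 bp. The median width was 1111 bp in KO cells and 1374 bp in WT cells, and 76.0% of the pairs were wider in WT cells. The order of strength was only loosely shared. The lower replicate value had a Spearman correlation of 0.259 between KO and WT cells over these pairs, which share their positions. Within KO cells the replicates correlated at 0.306 and within WT cells at 0.704, so the order among KO peaks was itself poorly fixed between replicates. Between KO and WT cells the first replicates correlated at 0.335 and the second at 0.572, the first KO with the second WT replicate at 0.221, and the second KO with the first WT replicate at 0.534.

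A region on chromosome 1 (204775852 to 204777787 in the KO list, GRCh37) was among the 5 strongest shared peaks of both lists. PDS5A had replicate −log10 p values of 88.7 and 202 there in KO cells, 513 and 381 in Rescue cells, and 281 and 272 in WT cells. RAD21 had 87.5 and 167 in KO cells, 351 and 243 in Rescue cells, and 370 and 221 in WT cells. No H3K27Ac peak was within the IDR limit there in any of the 3 treated genotypes, and an IgG peak of treated WT cells over the limit was deposited there. The strongest shared peak of the KO list, on chromosome 16 from 50839881 to 50841219, had 156 and 308 in KO cells, 614 and 455 in Rescue cells, and 273 and 223 in WT cells. The strongest of the WT list, on chromosome 3 from 97757624 to 97758871, had 60.4 and 144 in KO cells, 392 and 250 in Rescue cells, and 366 and 339 in WT cells. These p-values depend on read depth, so they rank peaks within a list and set no level between lists.

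The peaks called KO-only were in most cases deposited in WT cells too, with unequal replicates. Of the 728, 686 overlapped a deposited WT peak over the limit. Those WT peaks had a median −log10 p of 30.6 in the first replicate and 7.80 in the second, a median IDR of 0.263 and a median width of 1894.5 bp. By contrast, the other 21057 WT peaks over the limit had medians of 10.6 in the first replicate and 7.80 in the second, and a width of 730 bp. WT peaks under KO-only sites were thus broader, with a higher median in the first replicate and the same median in the second. The second replicate value was over 10 in 33.8% of them, counted once each, beside 27.6% of the other WT peaks over the limit. The first replicate was the higher in 83.8% of the 681 distinct ones, beside 68.3% of the other WT peaks over the limit. All these WT peaks were over the IDR limit, which also reads rank agreement, so unequal replicates were partly set by that choice. Only the WT peaks under KO-only sites had to overlap a KO-only peak, which a wider peak does more easily. The gaps in width and first replicate value were thus partly set by the choice, and what remains beyond it was not tested. The KO-only peaks themselves had a median lower value of 16.3, close to the 16.98 of shared KO peaks, and a median width of 1228 bp.

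Of the WT-only peaks a smaller share had a deposited counterpart. Of the 9045, 5757 overlapped a deposited KO peak over the limit, with a median −log10 p of 8.70 in the first KO replicate and 13.2 in the second, and a median IDR of 0.178. The lower value of these counterparts had a median of 7.83, and that of the WT counterparts of KO-only peaks one of 7.80. The WT-only peaks had a median lower value of 17.8, against 29.3 for shared WT peaks. Their median width was 1034 bp, against 1378 bp for shared WT peaks. The 3288 without any deposited KO peak were narrower still, with a median of 838 bp. Over all 9045 WT-only peaks the median distance to the nearest listed KO peak was 136 kb, and 7.93% had one within 10 kb. For KO-only peaks the nearest listed WT peak was a median of 32.2 kb away, and 23.1% had one within 10 kb; the longer WT list brings its peaks closer.

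RAD21 of KO cells was listed at fewer WT-only than shared PDS5A peaks, on a background in which 23.1% of all WT RAD21 peaks were listed for RAD21 in KO cells. On RAD21 peaks of treated KO cells lay 51.5% of KO-only, 61.1% of shared (counted in the WT list, here and in what follows) and 13.6% of WT-only PDS5A peaks. On RAD21 peaks of treated WT cells lay 63.7%, 88.4% and 73.8%, and on those of treated Rescue cells 75.1%, 82.2% and 43.7%. Of all KO RAD21 peaks, 88.3% were listed for RAD21 in WT cells. Among PDS5A peaks with RAD21 in KO cells this was 71.7% for KO-only, 93.5% for shared and 92.1% for WT-only peaks. Taken jointly, 61.2% of WT-only peaks carried RAD21 in WT cells alone, 12.5% in both, 1.08% in KO cells alone and 25.1% in neither. Shared PDS5A peaks carried RAD21 in both cells in 57.2% of cases and in WT cells alone in 31.2%. At the IDR limit most WT-only PDS5A peaks thus lay where RAD21 was listed in WT cells and not in KO cells, and so did part of the shared ones. Over every deposited RAD21 peak this turned round, with 59.6% of WT-only peaks on RAD21 in both cells and 37.0% in WT cells alone. Against every deposited RAD21 peak of the same cells the shares were 95.5% of KO-only and 96.6% of WT-only peaks. With the PDS5A classes set over every deposited peak they were 3.66% and 28.0%, so the levels rest on the IDR limit.

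**Figure D3:**
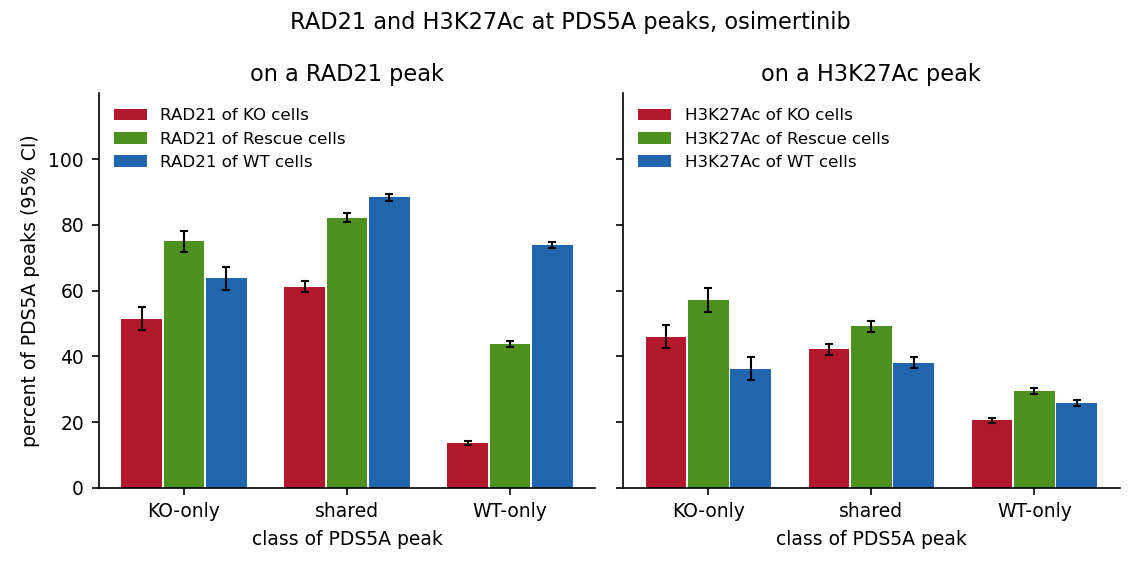
Share of KO-only, shared (WT list) and WT-only PDS5A peaks (horizontal axis) on a RAD21 peak (left panel) or an H3K27Ac peak (right panel) of treated KO, Rescue and WT cells; bars start at 0 and whiskers are 95% Wilson intervals. RAD21 of KO cells reaches 13.6% of WT-only peaks, where RAD21 of WT cells reaches 73.8%.

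The share of WT RAD21 peaks also listed in KO cells was above that background on shared PDS5A peaks and below it elsewhere. On shared PDS5A peaks it was 64.1% (62.4 to 65.8, 2924 RAD21 peaks), on WT-only PDS5A peaks 16.9% (16.1 to 17.9, 6673), and where WT cells had no PDS5A peak 11.3% (10.6 to 12.1, 6743). The order of shared over WT-only held within each tercile of RAD21 strength. In the lowest tercile 36.2% were listed in KO cells on shared and 5.14% on WT-only PDS5A peaks, in the middle 46.5% and 11.6%, and in the highest 76.5% and 29.9%. Away from IgG peaks the values were 54.8% on shared and 13.5% on WT-only sites. Counted from the PDS5A peaks and over every deposited RAD21 peak, those with RAD21 in WT cells had it in KO cells too in 95.02% of shared and 61.7% of WT-only cases, beside 41.3% for all deposited WT RAD21 peaks. RAD21 peaks without PDS5A in WT cells stood near those on WT-only PDS5A peaks, with 4.40%, 10.8% and 34.7% over the terciles; in the highest the intervals (31.9 to 37.6 without PDS5A, 28.2 to 31.7 on WT-only peaks) did not overlap.

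At the IDR limit H3K27Ac differed less between the classes than RAD21 did. On H3K27Ac peaks of treated KO cells lay 46.0% of KO-only, 42.2% of shared and 20.5% of WT-only PDS5A peaks, and on those of treated WT cells 36.3%, 38.0% and 25.8%. At WT-only peaks H3K27Ac was in both cells in 13.7% of cases, in WT cells alone in 12.1% and in KO cells alone in 6.81%. Of all WT H3K27Ac peaks, 44.7% were listed in KO cells. In the other direction, 53.9% of KO H3K27Ac peaks were listed in WT cells. The share listed in KO cells was 74.8% for those on shared PDS5A peaks and 53.2% for those on WT-only PDS5A peaks. Where PDS5A was not listed in KO cells, H3K27Ac was therefore still listed in a larger share of cases than RAD21 was, as it was over all peaks. Counted from the PDS5A peaks and over every deposited H3K27Ac peak, those with H3K27Ac in WT cells had it in KO cells too in 94.1% of shared and 81.6% of WT-only cases, beside 58.3% for all deposited WT H3K27Ac peaks. Over every deposited peak of treated WT cells H3K27Ac differed more between the classes. It lay on 72.9% of KO-only, 67.4% of shared and 53.1% of WT-only peaks, and RAD21 on 95.6%, 99.2% and 96.6%. In treated KO cells these shares were 80.8%, 69.2% and 46.4% for H3K27Ac and 95.5%, 94.6% and 60.1% for RAD21.

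The IgG lists bear on the H3K27Ac shares in particular. Any deposited IgG peak of the series lay on 58.1% of KO-only, 51.3% of shared and 27.6% of WT-only PDS5A peaks. The IgG list of the same cells lay on 30.8% of KO-only peaks in KO cells and 24.6% of WT-only peaks in WT cells. With such peaks left out, H3K27Ac of the same cells was found on 21.5% of KO-only and 13.9% of WT-only peaks, and RAD21 of the same cells on 42.5% and 71.0%. Among WT-only peaks with no deposited KO peak the share on any IgG peak was 10.8%. The gap of 30.5 points between KO-only and WT-only peaks was 39.8 points with equal lists ranked by the lower replicate value, 14.3 by the first replicate, 41.6 by the second, and 7.75 points over every deposited peak.

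**Figure D4:**
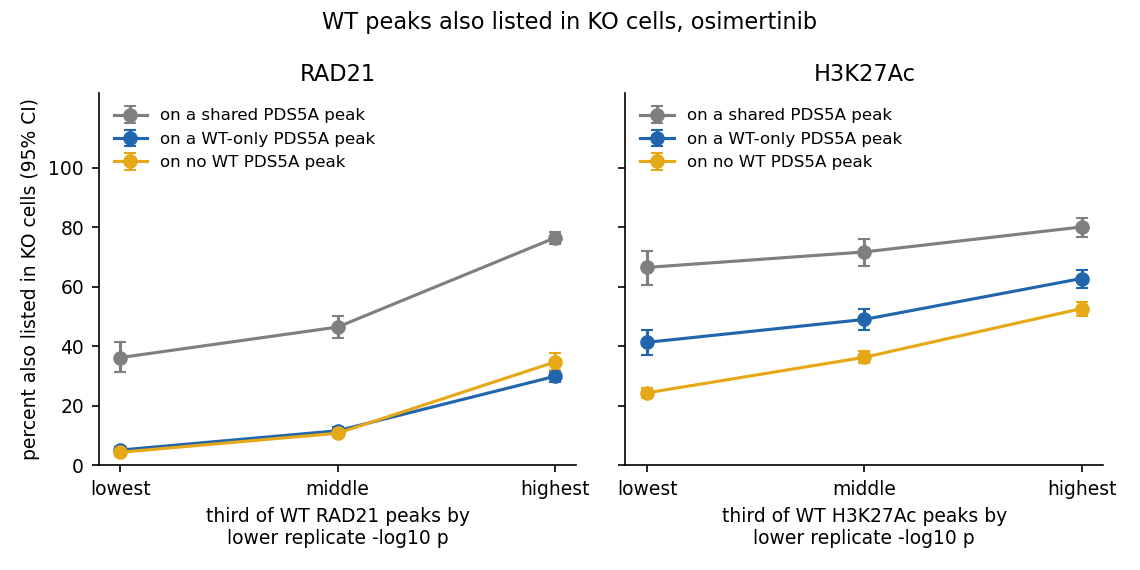
Share of WT RAD21 peaks (left panel) and WT H3K27Ac peaks (right panel) that were also listed in KO cells under osimertinib (vertical axis, percent, 95% Wilson intervals), by tercile of their strength (horizontal axis) and by the PDS5A peak they lie on. For RAD21 the shared class reaches 76.5% in the highest tercile and the WT-only class 29.9%.

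WT PDS5A peaks with both marks were listed in KO cells most often, and those with neither least often. With RAD21 and H3K27Ac of WT cells, 37.6% of 3030 peaks were listed in KO cells, with RAD21 alone 26.9% of 6542, with H3K27Ac alone 19.6% of 552, and with neither 12.4% of 2199. In each tercile of PDS5A strength the peaks with both marks were listed most often and those with neither least often, at 18.7% and 5.72% in the lowest, 33.9% and 10.4% in the middle, and 61.6% and 32.5% in the highest. RAD21 alone stood above H3K27Ac alone in the lowest tercile, at 11.3% against 10.6%. It stood below it in the middle, at 16.8% (15.3 to 18.4) against 22.2% (16.4 to 29.4, 153 peaks), and in the highest, at 45.2% (43.3 to 47.0) against 55.7% (44.1 to 66.8, 70 peaks). The intervals of these marks overlapped in the middle and highest terciles, so their order was not settled. The strongest WT peaks were also the ones with most RAD21, 92.9% in the strongest decile and 61.6% in the weakest, and with least H3K27Ac, 22.95% and 31.0%. KO peaks differed in this. Their H3K27Ac share was 52.7% in the strongest decile and 27.8% in the weakest, beside a share on any IgG peak of 68.7% and 35.0%.

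In untreated KO and WT cells, whose PDS5A lists hold 901 and 1731 peaks, a minority of these sites was listed, with the smallest share among WT-only ones. The untreated Rescue list, with 13746 peaks, held 80.6% of KO-only, 91.8% of shared and 58.8% of WT-only peaks. The untreated KO PDS5A list held 12.9% of KO-only, 19.8% of shared and 1.32% of WT-only peaks, and the untreated WT list 23.5%, 36.1% and 3.34%. Against every deposited untreated KO peak, 64.4% of KO-only, 75.5% of shared and 33.0% of WT-only peaks were found. For every deposited untreated WT peak these shares were 92.4%, 93.3% and 53.2%. With classes set at an IDR of 0.01 or less the untreated KO list held 26.1% of KO-only peaks. Treated Rescue cells held 75.1% of KO-only, 89.7% of shared and 52.1% of WT-only peaks. Of the WT-only peaks with no deposited KO peak, 31.8% were listed in treated Rescue cells. KO-only peaks were thus Rescue sites more often than WT-only peaks were, by 23.1 points. That difference was 8.52 points with lists of equal length and 2.52 points at an IDR of 0.01 or less.

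The strongest sites with no deposited peak in the other list were taken one by one as K1 to K8 (KO-only) and W1 to W8 (WT-only). Gene annotation of GRCh37 was not used here, so they are given by position. K1 lay on chromosome 20 from 39317640 to 39319473, where PDS5A had replicate −log10 p values of 46.9 and 92.2 in KO cells and 204 and 75.2 in Rescue cells. The nearest deposited PDS5A peak of treated WT cells was 271.6 kb away. RAD21 had 67.1 and 146 there in treated KO cells and no deposited peak in treated WT cells. In untreated WT cells both were listed at K1, PDS5A with 34.7 and 38.5 and RAD21 with 212 and 82.9. K1 was thus a site of untreated WT cells that was missing from the treated WT lists and present in the treated KO and Rescue lists.

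K4 lay on chromosome 12 from 5205019 to 5206419. PDS5A had 28.7 and 49.0 in treated KO cells and 98.2 and 61.8 in treated Rescue cells, and RAD21 39.3 and 64.0 in treated KO cells. Treated WT cells had neither peak deposited, while untreated WT cells had RAD21 listed with 108 and 11.1 and PDS5A over the IDR limit with 8.16 and 21.5. K2, on chromosome 1 from 228870388 to 228872099, had PDS5A with 44.2 and 80.2 in treated KO cells and 172 and 110 in treated Rescue cells. RAD21 there had 5.52 and 87.9 in treated KO cells, 6.25 and 5.82 in treated WT cells and 122 and 28.7 in untreated WT cells. Of K1 to K8, 8 of 8 were listed for PDS5A in treated Rescue cells, beside 76.2% of the 42 KO-only peaks with no deposited WT peak and 75.1% of all 728. RAD21 was listed at 7 of 8 in untreated WT cells and at 2 of 8 in treated WT cells. Over the 42 KO-only peaks with no deposited WT peak these shares were 31.0% and 21.4%, and over all 728 KO-only peaks they were 42.9% and 63.7%, so the strongest regions do not stand for the class. K3 and K8 lay on an IgG peak, and K8 was 1.67 kb from a deposited WT peak, while the other 7 were 69.6 kb or more away.

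W1 lay on chromosome 5 from 6765385 to 6767263, with PDS5A replicate −log10 p values of 85.1 and 16.8 in treated Rescue cells and 139.8 and 98.5 in treated WT cells. RAD21 there had 7.56 and 4.05 in treated KO cells, over the IDR limit, 21.9 and 12.5 in treated Rescue cells, and 69.4 and 42.4 in treated WT cells. W2, on chromosome 3 from 58202761 to 58203467, had PDS5A with 94.8 and 93.5 and RAD21 with 113 and 89.6 in treated WT cells. Neither had a deposited peak at W2 in treated KO or treated Rescue cells. W4, on chromosome 5 from 34522714 to 34523873, had PDS5A with 51.4 and 18.1 in treated Rescue cells and 92.3 and 97.0 in treated WT cells, and RAD21 with 136 and 124 in treated WT cells. Of W1 to W8, 5 of 8 were listed for PDS5A in treated Rescue cells, 1 of 8 in untreated WT cells and 0 of 8 in untreated KO cells, where 6 more had a peak over the limit. Of the 3288 WT-only peaks with no deposited KO peak, 31.8% were listed in treated Rescue cells. In untreated KO cells 0.335% of them were listed and 17.2% deposited. The untreated WT list held 3.34% of all 9045 WT-only peaks, a wider set than the 3288 from which W1 to W8 were drawn. RAD21 was listed at 0 of 8 in treated KO cells and at 7 of 8 in treated WT cells, beside 3.38% and 64.4% of the 3288 WT-only peaks with no deposited KO peak. None of the 8 lay on an IgG peak, while 10.8% of those 3288 did. Chromosome 5 held 4 of the 8, beside 482 of all 9045 WT-only peaks, again the wider set.

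**Figure D5:**
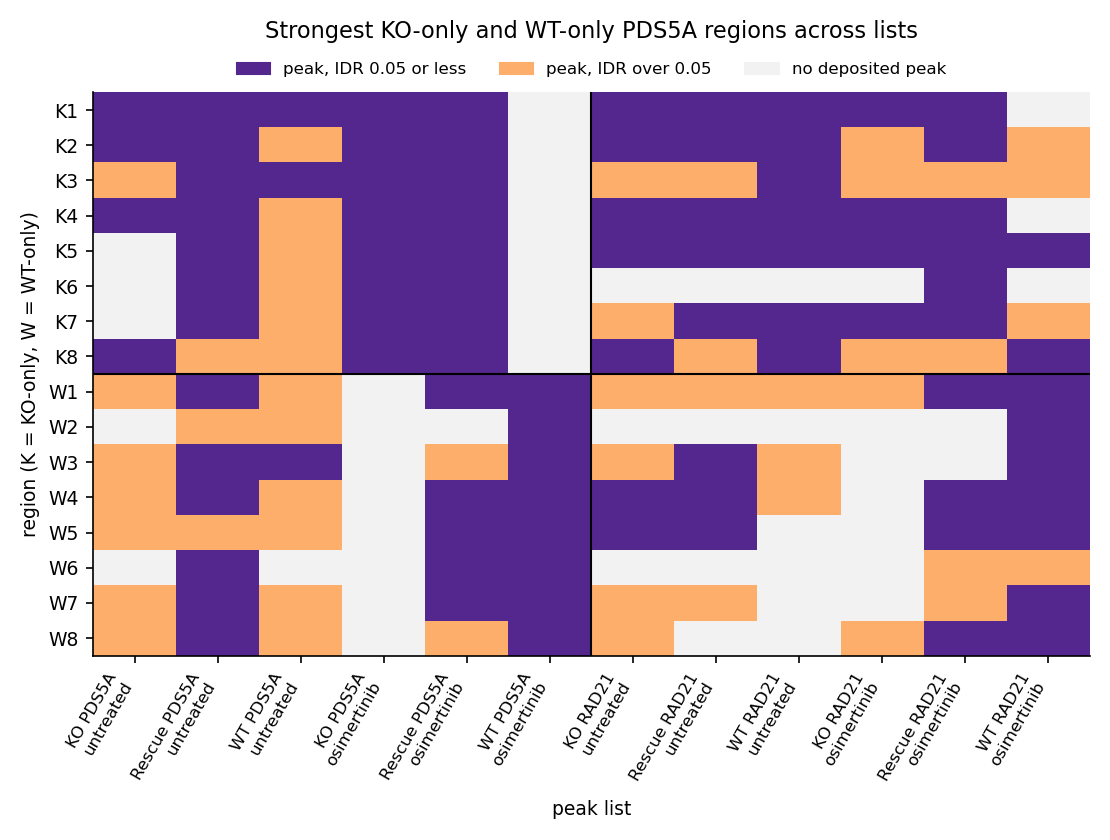
State of the 8 strongest KO-only regions (K1 to K8) and the 8 strongest WT-only regions (W1 to W8) without a deposited peak in the other treated list (rows) in the PDS5A and RAD21 lists of KO, Rescue and WT cells (columns). K regions are listed for PDS5A in treated Rescue cells at 8 of 8 and W regions at 5 of 8. Over all KO-only and all WT-only peaks without a deposited peak in the other list these shares are 76.2% and 31.8%. The empty PDS5A columns for treated WT cells at K and treated KO cells at W follow from the choice of regions.

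KO cells had fewer PDS5A peaks on each of the 22 chromosomes, but not in equal proportion. Chromosome 20 held 6.07% of KO peaks (5.37 to 6.85) and 4.17% of WT peaks (3.83 to 4.53), which is 244 against 514 peaks. Chromosome 14 held 4.23% of KO peaks and 2.94% of WT peaks. Chromosome 6 held 3.41% of KO peaks (2.89 to 4.01) and 5.39% of WT peaks (5.00 to 5.80), which is 137 against 664 peaks, and chromosomes 18 and 21 had 17 against 122 and 8 against 71 peaks. The KO share was 1.45 times the WT share on chromosome 20 and 0.632 times on chromosome 6. Over every deposited peak these folds were 1.20 and 0.802, and on chromosomes 18 and 21 they were 0.834 and 0.766 in place of 0.427 and 0.345. On chromosome 20 the deposited IgG peaks also made up more of the KO list, 8.32% against 4.59% in WT cells, and on chromosome 6 less, 2.02% against 4.37%. RAD21 shares were 5.57% in KO and 3.62% in WT cells on chromosome 20, and 4.01% and 5.47% on chromosome 6. The part of the IgG difference in these shares was not tested.

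By 5 Mb window, the KO share was over 2-fold the WT share in 17 of 293 windows (5.8%) and under 0.5-fold in 50 (17.1%). These are windows with at least 20 peaks over both lists. Since the KO list is the shorter, a fall under 0.5-fold can rest on small counts near that minimum. On chromosome 7 from 90 to 95 Mb, for example, there were 2 KO and 20 WT peaks. No interval was computed for windows. The rise in share was largest on chromosome 12 from 5 to 10 Mb, with 54 KO and 80 WT peaks, followed by chromosome 16 from 65 to 70 Mb (41 and 51), chromosome 19 from 55 to 60 Mb (42 and 55) and chromosome 12 from 50 to 55 Mb (50 and 86). The fall was largest on chromosome 22 from 35 to 40 Mb, with 9 KO and 79 WT peaks, followed by chromosome 7 from 100 to 105 Mb (5 and 59), chromosome 15 from 40 to 45 Mb (5 and 58) and chromosome 10 from 75 to 80 Mb (2 and 43). Counts were lower in KO cells in 292 of the 293 windows and higher in 1, and in 5 windows KO cells had no peak.

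RAD21, H3K27Ac and IgG moved with PDS5A in most windows past the 2-fold limit. The KO share of RAD21 peaks was above the WT share in 17 of the 17 windows that rose and below it in 47 of the 50 that fell. For H3K27Ac these counts were 17 and 43, for deposited IgG peaks 17 and 48, and for PDS5A over every deposited peak 15 and 48. Over all 293 windows the KO share was above the WT share in 153 for RAD21, 139 for H3K27Ac and 127 for deposited IgG peaks. On chromosome 22 from 35 to 40 Mb there were 10 RAD21 peaks in KO cells and 118 in WT cells, 44 and 95 H3K27Ac peaks, and 4 and 69 deposited IgG peaks. On chromosome 12 from 5 to 10 Mb there were 38 and 73 RAD21 peaks, 58 and 58 H3K27Ac peaks, and 34 and 54 deposited IgG peaks. Chromosome 12 from 50 to 55 Mb, where the PDS5A share of KO cells was 1.78 times that of WT cells and so within the limit, differed: the fold was 1.15 for RAD21, 0.984 for H3K27Ac and 0.50 for deposited IgG peaks. The part of the IgG lists in these windows was not tested, and with lists of equal length 25 of 149 windows were past the 2-fold limit in place of 67 of 293.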

How the data were processed

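CUT&RUN libraries of PC9 cells were read through the peak lists of the authors. Per the submitters' processing notes, the genome build was GRCh37 and the tools included MACS2 2.2.7.1, Bowtie2 2.4.2, bedtools 2.30, SAMtools 1.16 and deepTools 3.5.1. Each list joins 2 replicates; the deposited values are the −log10 of the global IDR and each replicate's −log10 p, never under 3, as the authors' programs gave them, with no read counts, so depth is unknown. The peak calling threshold, control and pooling are not given in the sources used here.

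Peaks on chromosomes 1 to 22 with a −log10 IDR of at least 1.301 (IDR of 0.05 or less) were used, and all deposited peaks as a second set. KO-only, shared and WT-only peaks were set by an overlap of 1 bp with pandas 2.3.3 and numpy 2.4.6, in code tested on simulated regions. Lists were cut to equal length by the lower replicate value. Shares carry 95% Wilson intervals from scipy 1.17.1. Windows of 5 Mb needed 20 peaks over both lists. Named regions were the 8 strongest KO-only and 8 strongest WT-only peaks, by the lower replicate value, that met no deposited peak of the other list, the 5 strongest shared peaks of each list (3 regions given here), and 4 windows each for the largest gains and losses in share. The members and lists were chosen with earlier results of these data known. The strength terciles of RAD21 and H3K27Ac, the replicate values of peaks over the limit and the window directions in other lists were added after values were seen. Gene lists and motifs were planned and not analysed here, since no GRCh37 annotation or sequence was used. The 12 H2A samples were not used here.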

Additional observations from a re-analysis of the deposited data

How the results depend on the processing

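Of 137 values of the 14 main results under 14 alternatives, 77 stayed within their interval or within 1.5 times the count, and 60 moved. A change of direction could be recorded only for the ratio of peak numbers and the gaps in treated Rescue and on IgG, and 0 were recorded. Shares and counts had no direction to change. Adding chromosome X, asking for an overlap of 50% of the shorter peak, using the peak boundaries of the first or second replicate, covered length and 10 Mb windows moved none of the results they apply to, counts of windows being compared without their denominators. In each list of values below, the order is: KO peaks shared with WT and WT peaks shared with KO, the same at equal length, KO-only and WT-only peaks on RAD21 of the same cells, the same on H3K27Ac, KO-only peaks in the untreated KO list, and the gap between KO-only and WT-only peaks in treated Rescue and on IgG.

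With all deposited peaks of either list, the KO to WT ratio was 0.527, the sharing 91.0% and 46.9%, at equal length 64.8% and 63.1%, RAD21 3.66% and 28.0%, H3K27Ac 22.3% and 16.02%, untreated 0.434%, and the gaps 6.74 and 7.75 points. The number of chromosomes past 1.25-fold was 4 in place of 9, and 48 of 498 windows were past 2-fold. At an IDR of 0.01 or less the sharing was 78.0% and 20.9%, at equal length 44.5% and 44.1%, RAD21 68.6% and 86.6%, H3K27Ac 53.1% and 28.7%, untreated 26.1%, the Rescue gap 2.52 points, and 41 of 133 windows were past 2-fold in place of 67 of 293. With peaks on IgG left out the sharing was 83.1% and 19.6%, RAD21 42.5% and 71.0%, H3K27Ac 21.5% and 13.9%, and untreated 17.8%.

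Cut to equal length by the lower replicate value, WT-only RAD21 was 85.5%, H3K27Ac 51.8% and 18.4%, untreated 7.77%, the gaps 8.52 and 39.8 points, and the windows 25 of 149. Ranked by the first replicate alone, equal-length sharing was 54.1% and 53.7%, WT-only RAD21 89.3%, WT-only H3K27Ac 31.5%, untreated 9.26%, the gaps 8.30 and 14.3 points, and the windows 20 of 145. Ranked by the second alone, WT-only RAD21 was 85.2%, H3K27Ac 51.9% and 17.1%, untreated 7.69%, the gaps 9.85 and 41.6 points, and the windows 29 of 148. Fewer windows reach the minimum of 20 peaks in shorter lists. Of 177 windows of 1 Mb, 33 were past 2-fold. With every deposited peak of the other lists, an alternative chosen after seeing the data, RAD21 was 95.5% and 96.6%, H3K27Ac 80.8% and 53.1%, untreated 64.4%, and the Rescue gap 15.2 points. The companion ratios at an IDR of 0.01, 0.207 for RAD21 and 1.09 for H3K27Ac, were also chosen after seeing the data. The cause was not tested.

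No paired analysis was possible because each deposited list joins both replicates, and no replicate was left out for that reason. Gene lists and motif content were not run.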
